A study of Homo sapiens with 12 samples.

Results

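The 10 genes described here are MDM2, SESN1, XPC, RRM2B, ZMAT3, BTG2, TP53INP1, GADD45A, GADD45B and GADD45G, which are 7 textbook targets of the transcription factor p53 and the 3 genes of the GADD45 family. They were taken by their symbols from the 26485 genes measured, and all 10 were found. In the study, HT-29 cells, an established human colon adenocarcinoma line, were treated for 8 h in 4 ways, and polyA RNA was sequenced in 12 libraries, 3 for each treatment. HT-29 cells carry mutant p53. The TSZ+Nec-1s group received TNFα at 10 ng/ml, SM-164 at 50 nM, zVAD at 20 µM and Nec-1s at 10 µM. The TSZ group received the same TNFα, SM-164 and zVAD without Nec-1s. The TNFα group received TNFα at 10 ng/ml alone, and the DMSO group received the solvent. IAP proteins are antagonized by SM-164, a mimetic of Smac, and caspases are blocked by zVAD. The kinase activity of RIPK1 is the target of Nec-1s, so TSZ stimulates necroptosis and Nec-1s inhibits it. All groups are 1 cell line, and separate cultures are not stated for the libraries, so the p-values describe the spread among these libraries, which may be technical.

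p53 is a transcription factor that is stabilized after DNA damage and other stresses and then activates genes of cell cycle arrest, DNA repair, metabolism and apoptosis. MDM2 is both a target of p53 and the ubiquitin ligase that removes it. Many of the same genes, GADD45 genes among them, can also be induced without p53. The routes differ between genes and include NF-κB, stress-activated MAP kinases with AP-1 and the ATF4-CHOP response. The comparisons ask how these genes stood after the necroptotic stimulus, after TNFα alone, and with RIPK1 kinase blocked.

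Promoter windows of 5 of the members that differed between TSZ and DMSO are shown first. GADD45B, BTG2, GADD45G and MDM2 were higher in TSZ and SESN1 was lower, while XPC, which was lower too, has a window that is described but not printed. Each window runs from 250 bases before to 50 after a RefSeq start site in GRCh38.p14, is written 5′ to 3′ along the gene, and has matches to 7 searched motifs in capitals. Of the 10 members, 7 had a window in the RefSeq table. GADD45B, BTG2, SESN1 and GADD45G follow the rule for sequences, and the MDM2 window was added after its values were seen. The GADD45B window lies at chr19:2475877-2476176, plus strand, the BTG2 window at chr1:203305269-203305568, plus strand and the GADD45G window at chr9:89604762-89605061, plus strand. SESN1 had 3 windows and MDM2 4, in overlapping or separate places, and the ones shown are at chr6:109008939-109009238, minus strand, for SESN1 and chr12:68808767-68809066, plus strand, for MDM2.
GADD45B: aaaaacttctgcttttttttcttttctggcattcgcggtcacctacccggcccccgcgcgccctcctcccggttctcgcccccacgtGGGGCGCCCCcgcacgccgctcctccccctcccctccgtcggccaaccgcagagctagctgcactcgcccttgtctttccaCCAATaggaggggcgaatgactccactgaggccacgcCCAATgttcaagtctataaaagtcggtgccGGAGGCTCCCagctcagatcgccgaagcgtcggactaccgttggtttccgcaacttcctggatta
BTG2: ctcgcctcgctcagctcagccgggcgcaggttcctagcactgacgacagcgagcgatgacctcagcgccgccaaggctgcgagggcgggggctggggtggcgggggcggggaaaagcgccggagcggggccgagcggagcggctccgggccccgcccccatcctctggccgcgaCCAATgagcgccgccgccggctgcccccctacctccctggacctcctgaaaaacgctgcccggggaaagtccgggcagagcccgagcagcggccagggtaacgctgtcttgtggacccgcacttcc
GADD45G: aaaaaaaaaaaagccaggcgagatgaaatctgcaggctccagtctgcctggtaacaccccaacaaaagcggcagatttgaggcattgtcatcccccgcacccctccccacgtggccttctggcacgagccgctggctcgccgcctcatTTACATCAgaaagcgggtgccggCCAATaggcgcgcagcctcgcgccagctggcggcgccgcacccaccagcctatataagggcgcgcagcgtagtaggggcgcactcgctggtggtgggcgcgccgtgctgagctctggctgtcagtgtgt
SESN1: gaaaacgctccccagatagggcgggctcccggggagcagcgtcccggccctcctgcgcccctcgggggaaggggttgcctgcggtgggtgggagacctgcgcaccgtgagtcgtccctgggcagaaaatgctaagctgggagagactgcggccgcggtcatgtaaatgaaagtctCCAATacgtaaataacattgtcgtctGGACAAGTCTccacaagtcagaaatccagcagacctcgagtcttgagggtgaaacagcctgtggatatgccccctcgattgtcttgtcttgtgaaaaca
MDM2: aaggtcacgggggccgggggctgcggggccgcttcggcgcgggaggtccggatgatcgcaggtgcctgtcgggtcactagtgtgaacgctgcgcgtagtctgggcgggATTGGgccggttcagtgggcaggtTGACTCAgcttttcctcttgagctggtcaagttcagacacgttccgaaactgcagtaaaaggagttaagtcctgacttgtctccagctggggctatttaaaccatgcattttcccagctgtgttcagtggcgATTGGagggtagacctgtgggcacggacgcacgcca

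The motifs were searched on both strands as AP-1 (TGANTCA), CRE (TGACGTCA), C/EBP-ATF (TGATGNAA) and NF-Y (CCAAT), and the p53 half-site, NF-κB and SRF motifs by their usual degenerate letters. The GADD45B window held 2 NF-κB matches, at -163 to -154 and -15 to -6 from the start site, and 2 NF-Y matches. The BTG2 window held 1 NF-Y match. In the GADD45G window there was 1 C/EBP-ATF match, at -102 to -95, and 1 NF-Y match. The SESN1 window held 1 p53 half-site, at -49 to -40, and 1 NF-Y match, and the other 2 SESN1 windows held no p53 half-site. The MDM2 window held 1 AP-1 match, at -118 to -112, and 2 NF-Y matches, and 2 of the 4 MDM2 windows held no AP-1 match. Of the windows not printed, the XPC window held no match to any of the 7 motifs, and 1 of the 2 ZMAT3 windows held 1 NF-κB match, at -226 to -217, and 1 NF-Y match. No exact p53 half-site match was found in the windows printed for GADD45B, BTG2, GADD45G and MDM2. The search allowed no mismatch, so sites that depart from the searched letters were not looked for. Such sites may lie in these windows, those of MDM2 and BTG2 included, so the lack of an exact match does not mean the lack of a p53 site. No matches overlapped in the 5 windows shown. Of 35116 windows of the same length, 11.3% held the NF-κB motif, 6.63% the p53 half-site, 7.71% AP-1, 3.62% C/EBP-ATF, 1.85% CRE, 1.29% SRF and 34.6% NF-Y. A match is a description of the letters and not a measured binding site.

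The deposited values are group means of scaled counts, and the whole reads of the 3 libraries behind each mean were recovered for each of the 10 members. Within a group the libraries have the letters a, b and c, which pair nothing between groups. Levels are given as normalized reads, which are reads divided by the size factor of the library, in the order a, b, c. The estimated depth was 8790766 to 12734104 reads per library. Differences are log2 fold changes from limma fitted to all 12 libraries over the 11734 genes whose mean was 10 or more. A gene was called at a Benjamini-Hochberg adjusted p under 0.05. Of the members, 9 of 10 passed this mean, and TP53INP1 did not. Reads were counted without strand. Of the exon bases of MDM2, 785 overlap an antisense lncRNA, 439 a pseudogene and 133 the gene CPM. For XPC, 1140 overlap the antisense gene XPC-AS1 and 413 another opposite-strand gene. For SESN1, 363 overlap an antisense lncRNA, and for TP53INP1, 225 overlap the gene NDUFAF6. CPM and NDUFAF6 were themselves among the genes measured, so reads within the bases they share may have been left uncounted. Reads from the other partners cannot be told apart in the shared bases. In RNA of whole cultures, fewer cells of a kind and less RNA per cell cannot be told apart either.

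Of 11 markers of colon epithelium, 9 had a mean of at least 10 in every group. CDX1 and CDX2 did not, with means of at most 0.74 (TSZ) and 6.77 (TNFα) normalized reads. Of 10 leukocyte markers, 4 in TSZ+Nec-1s, TSZ and TNFα and 3 in DMSO had such a mean, LYZ among them, while PTPRC, CD3E and MS4A1 were at 0 in all groups. Of 10 markers of fibroblasts and endothelium, the summed level ranged from 45.1 to 60.8 normalized reads in TSZ+Nec-1s libraries, 213 to 496 in TSZ libraries, 47.2 to 63.1 in TNFα libraries and 56.7 to 202 in DMSO libraries, with CDH5 and KDR at 0 in all groups. COL1A1 and COL1A2 of that list were called higher in TSZ than in DMSO and lower in TSZ+Nec-1s than in TSZ, as GADD45A was, and their part in the results was not tested. The deviation of a library from its group mean ran with transcript GC content in all groups but TSZ+Nec-1s. In 3 libraries GC-poor transcripts were high, with Spearman rho across 11531 genes of -0.75 in TSZ library a, -0.61 in TNFα library a and -0.81 in DMSO library b. The other libraries of these groups ran the opposite way, with rho of 0.55 and 0.60 in TSZ libraries b and c, 0.48 and 0.22 in TNFα libraries b and c, and 0.54 and 0.78 in DMSO libraries a and c, while rho was -0.14, 0.23 and -0.09 in the TSZ+Nec-1s libraries. Deviations from a group mean balance out within the group, so a library with a strong trend gives the others the opposite sign. The libraries kept in a group after leaving out the 3 had rho of the same sign. These values do not compare GC trends between groups. Members with GC-poor transcripts are given below with and without these 3 libraries, a choice made after seeing the data. TSZ, TNFα and DMSO each lost a library in that setting, while TSZ+Nec-1s kept all of its own.

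Between TSZ and DMSO, 5 of the 9 tested members were higher (GADD45A, GADD45B, BTG2, GADD45G and MDM2), where 26.0% of all tested genes were higher. SESN1 and XPC were lower, 2 of 9, where 24.2% of all tested genes were lower. ZMAT3 and RRM2B were not called. The median log2 fold change was 0.92 over the 9 members and -0.02 over all tested genes. TNFα alone called 0 of 9 members in either direction, where 3.14% of all genes were higher and 1.08% lower, and 2 members (SESN1 and GADD45B, both with lower means) had an unadjusted p under 0.05. limma without precision weights called 0 members as well. Of all 11734 tested genes, 1089 were higher and 688 lower at an unadjusted p under 0.05 with TNFα alone. With Nec-1s added to TSZ, 3 of 9 members were lower than with TSZ (GADD45A, GADD45B and BTG2), where 22.7% of all genes were lower, and XPC was higher, where 19.8% were higher. Every one of these comparisons shares libraries with another.

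**Figure D1:**
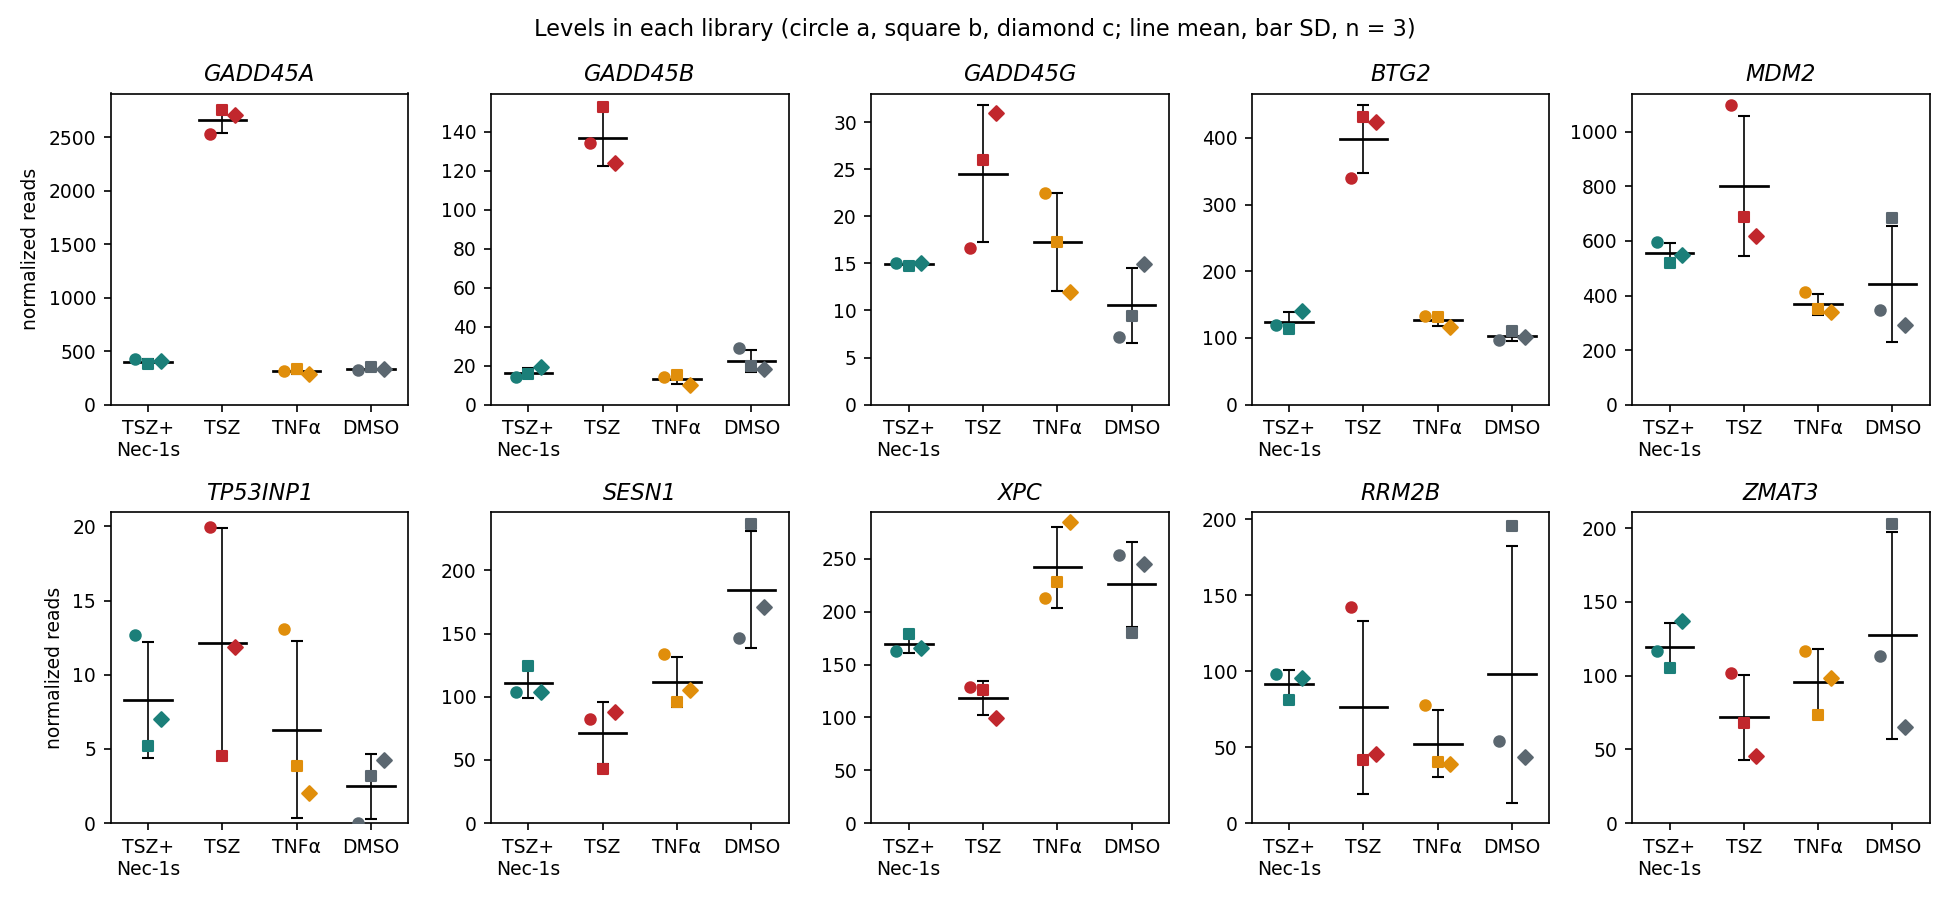
Normalized reads (linear axes, a scale for each gene) of the 10 genes in the 12 libraries, by treatment; points are libraries a, b and c, lines the means of 3 libraries and bars the SD. The 3 TSZ libraries of GADD45A lie between 2528 and 2755, above every other library, while RRM2B stands out in TSZ library a and DMSO library b.

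The GADD45 proteins are small nuclear stress proteins that bind the MAP3K4 kinase, PCNA and the CDK1-cyclin B1 complex. GADD45A (chr1:67685201-67688334, plus strand, hg38) was the first of them to be known as a p53 target. Its level was 2528, 2755 and 2709 normalized reads in the TSZ libraries, against 327, 351 and 334 in the DMSO libraries. The groups lay far apart, and within each of them the libraries were close together. GADD45A rose 7.89-fold, with a log2 fold change of 2.98 (SE 0.10, adjusted p = 6.5e-11), the largest change of the 9 tested members. With TNFα alone the level was 312, 335 and 284 normalized reads, which overlapped DMSO, and the log2 fold change was -0.12 (SE 0.11, adjusted p = 0.67). TSZ+Nec-1s gave 426, 376 and 408 normalized reads, lower than every TSZ library. The log2 fold change of TSZ+Nec-1s against TSZ was -2.72 (SE 0.09, adjusted p = 3.2e-10), a 6.6-fold lower level with Nec-1s. The TSZ+Nec-1s libraries all lay above the DMSO libraries, but the difference of 0.26 (SE 0.10, adjusted p = 0.13) was not called. In the order of levels, TSZ stood first, and TSZ+Nec-1s, DMSO and TNFα followed with no called difference among them.

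GADD45B (chr19:2476122-2478259, plus strand) is known as the NF-κB-responsive member, which restrains JNK signalling through MKK7. It showed the same pattern at a much lower level. GADD45B had 134, 152 and 124 normalized reads in TSZ libraries and 28.8, 19.97 and 18.2 in DMSO libraries, without overlap. The rise was 6.06-fold, with a log2 fold change of 2.60 (SE 0.22, adjusted p = 6.7e-07). With TNFα alone it had 14.02, 15.4 and 10.01 normalized reads, below every DMSO library, but the log2 fold change of -0.75 (SE 0.29, adjusted p = 0.23) was not called. Against TNFα, TSZ was higher by 3.35 (SE 0.25, adjusted p = 2.9e-07) on the log2 scale. TSZ+Nec-1s left 14.2, 15.6 and 19.1 normalized reads, and the log2 fold change against TSZ was -3.05 (SE 0.23, adjusted p = 3.7e-07), the largest fall with Nec-1s among the 9 tested members. Between TSZ+Nec-1s and DMSO the libraries overlapped, at -0.45 (adjusted p = 0.33) on the log2 scale. TSZ stood first in level, and DMSO, TSZ+Nec-1s and TNFα were not separated by any call.

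GADD45G (chr9:89605012-89606555, plus strand), the member known as a cytokine-response gene, was measured with few reads. Its levels were 16.6, 25.96 and 30.9 normalized reads in TSZ, 22.4, 17.3 and 12.01 in TNFα and 7.20, 9.46 and 14.96 in DMSO libraries. TSZ and DMSO did not overlap, and the TNFα libraries overlapped both. The log2 fold change of TSZ against DMSO was 1.21 (SE 0.36, adjusted p = 0.013), from 64 reads in all in TSZ and 31 in DMSO. Without DMSO library a, this was 0.96 with an adjusted p of 0.067, and with scaling to total reads 0.80 with an adjusted p of 0.061, so the call rests on those choices. TSZ+Nec-1s libraries had 15.02, 14.8 and 15.1 normalized reads, all below the TSZ libraries. The log2 fold change against TSZ of -0.65 (SE 0.33, adjusted p = 0.12) was not called. It was called without TSZ library a (-0.91, adjusted p = 0.039) and without the 3 libraries high in GC-poor transcripts (-0.91, adjusted p = 0.024). With the GC trend removed it was not called (-0.37, adjusted p = 0.24). Per kilobase of transcript, the TSZ level averaged 1970.4 for GADD45A, 99.8 for GADD45B and 23.0 for GADD45G, and the DMSO level 249, 16.3 and 9.89 in the same order of genes.

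BTG2 (chr1:203305491-203309602, plus strand) is an antiproliferative protein that recruits the CCR4-NOT deadenylase to mRNA. It had 339.5, 431 and 424 normalized reads in TSZ libraries and 96.3, 110.4 and 102 in DMSO libraries. The groups did not overlap, and BTG2 rose 3.85-fold, at 1.94 (SE 0.14, adjusted p = 2.0e-07) on the log2 scale. TNFα libraries, at 134, 131 and 117 normalized reads, all lay above the DMSO libraries, and the log2 fold change of 0.31 (SE 0.16, adjusted p = 0.39) was not called. TSZ against TNFα gave 1.63 (SE 0.14, adjusted p = 9.9e-07). TSZ+Nec-1s libraries held 119, 113 and 141 normalized reads and overlapped the TNFα libraries. Against TSZ the log2 fold change was -1.68 (SE 0.14, adjusted p = 8.2e-07), so that BTG2 stood first in TSZ and the other groups had no called difference. The lowest of the TSZ libraries was library a, one of the 3 high in GC-poor transcripts, and without those 3 libraries BTG2 was higher in TSZ than in DMSO by 2.11.

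MDM2 (chr12:68808177-68845544, plus strand) encodes the ubiquitin ligase of p53 and is the feedback arm of the pathway. The levels were 1097, 687 and 620.0 normalized reads in TSZ libraries, against 348, 684 and 293 in DMSO libraries. DMSO library b overlapped the TSZ libraries, and the highest values of both groups were in the libraries high in GC-poor transcripts. MDM2 was higher by 0.92 (SE 0.27, adjusted p = 0.012) on the log2 scale, or 1.89-fold. This call was lost without DMSO library a (0.79, adjusted p = 0.055), with scaling to total reads (0.51, adjusted p = 0.14) and in a fit of the TSZ and DMSO libraries alone (0.92, adjusted p = 0.057). Without the 3 libraries high in GC-poor transcripts it was 1.03 and called. TNFα libraries had 413, 351 and 340.3 normalized reads, and TSZ was above them without overlap, at 1.08 (SE 0.27, adjusted p = 0.0055). In TSZ+Nec-1s libraries MDM2 had 596, 521 and 550.3 normalized reads. These lay between the TNFα and the TSZ libraries without overlapping either, and neither the log2 fold change against TSZ, -0.49 (SE 0.26, adjusted p = 0.14), nor the one against TNFα, 0.60 (adjusted p = 0.28), was called. Without the 3 libraries, TSZ+Nec-1s was above DMSO by 0.79 (adjusted p = 6.1e-07), above TNFα by 0.68 (adjusted p = 8.3e-06), and the log2 fold change against TSZ was -0.23 (adjusted p = 0.028). With the GC trend removed and all libraries kept, these were 0.22 (adjusted p = 0.15), 0.25 (adjusted p = 0.21) and -0.66 (adjusted p = 1.1e-04), so the place of TSZ+Nec-1s between the other groups depends on how the GC trend is handled.

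**Figure D2:**
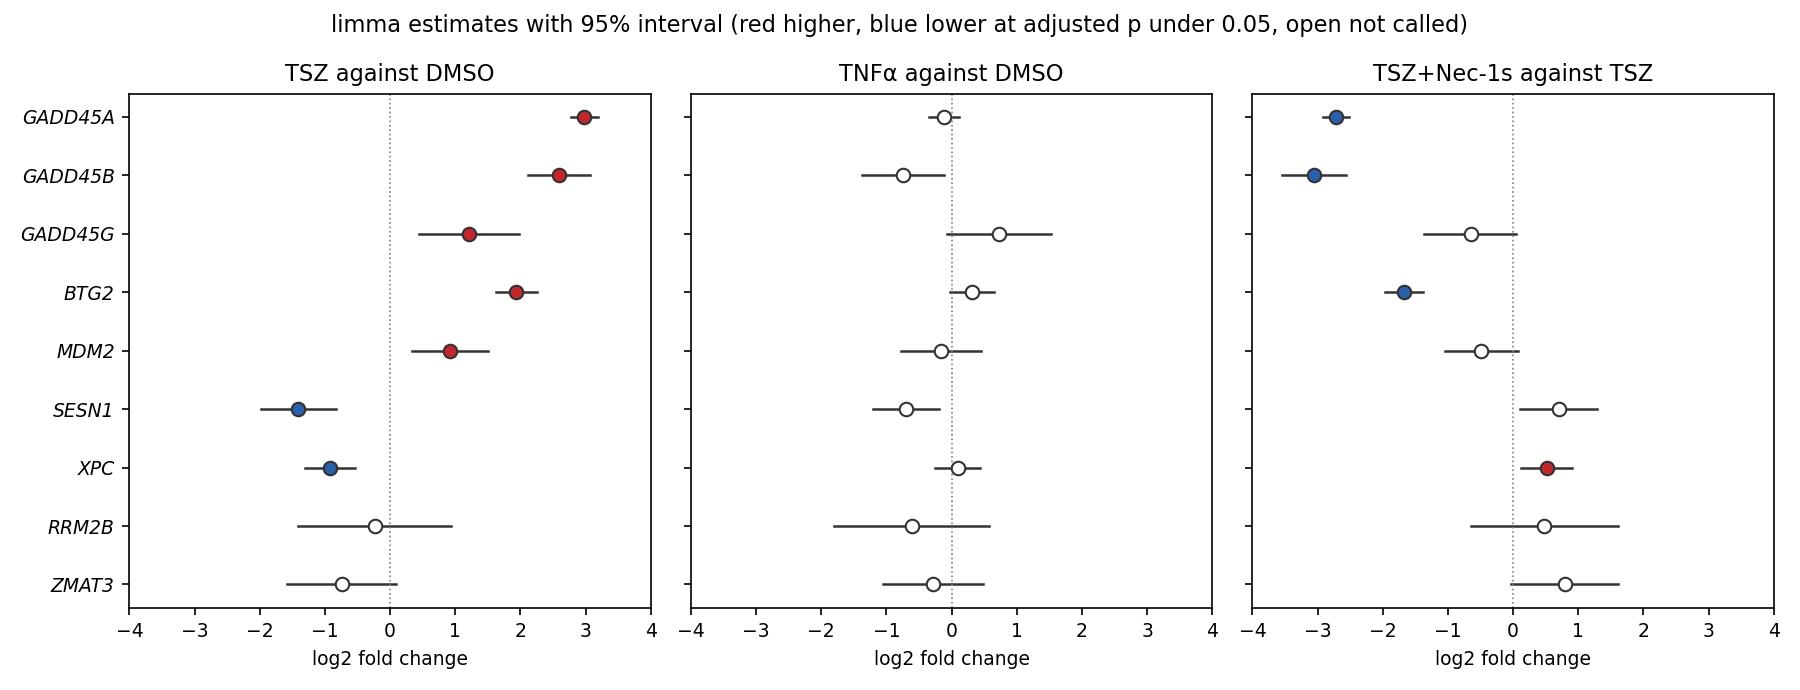
log2 fold changes (points) with 95% intervals (lines) from limma for the 9 tested members in TSZ against DMSO, TNFα against DMSO and TSZ+Nec-1s against TSZ; red is called higher, blue called lower and open not called. GADD45A, GADD45B and BTG2 lie at 2.98, 2.60 and 1.94 in the first panel and at -2.72, -3.05 and -1.68 in the last, and no point is filled for TNFα alone.

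SESN1 (chr6:108984309-109094846, minus strand) encodes a sestrin, a stress protein that restrains the growth kinase complex mTORC1. It fell in TSZ. Its levels were 82.1, 42.9 and 88.1 normalized reads in TSZ libraries and 147, 236 and 171 in DMSO libraries, without overlap. The log2 fold change was -1.41 (SE 0.26, adjusted p = 6.9e-04), a 2.65-fold lower level. TNFα libraries had 134, 96.2 and 105 normalized reads, below every DMSO library, and the log2 fold change of -0.70 (SE 0.23, adjusted p = 0.14) was not called, although it was called without the 3 libraries high in GC-poor transcripts (-0.65, adjusted p = 0.032) and with the GC trend removed (-0.60, adjusted p = 0.039). In TSZ+Nec-1s libraries the level was 104, 124 and 104 normalized reads, above every TSZ library and below every DMSO library. Neither difference was called, at 0.70 (SE 0.27, adjusted p = 0.056) against TSZ and -0.71 (SE 0.23, adjusted p = 0.062) against DMSO. Both were called without the 3 libraries, at 0.85 (adjusted p = 0.0028) and -0.52 (adjusted p = 0.014). The difference between TSZ+Nec-1s and TNFα was -0.01 (95% interval -0.54 to 0.52, adjusted p = 0.99) on the log2 scale. In the order of levels DMSO stood first, TNFα and TSZ+Nec-1s shared the middle and TSZ was last.

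XPC (chr3:14145147-14178621, minus strand) is the damage sensor that starts global genome nucleotide excision repair. XPC had 129, 126 and 99.97 normalized reads in TSZ libraries and 254, 179.7 and 245 in DMSO libraries. It fell in TSZ, 1.9-fold, with a log2 fold change of -0.92 (SE 0.18, adjusted p = 8.9e-04) and no overlap of the groups. TNFα libraries held 213, 228 and 285 normalized reads, overlapping DMSO, and the difference was 0.10 (SE 0.16, adjusted p = 0.83). TSZ+Nec-1s libraries had 163, 179 and 166 normalized reads, between the TSZ and the DMSO libraries and overlapping neither. XPC was higher in TSZ+Nec-1s than in TSZ by 0.52 (SE 0.18, adjusted p = 0.036). This call was lost when TSZ library b or c or any 1 of the TSZ+Nec-1s libraries was left out, with log2 fold changes of 0.40 to 0.57 and adjusted p values of 0.06 to 0.14. Against DMSO, TSZ+Nec-1s gave -0.41 (SE 0.16, adjusted p = 0.13), which was called only without DMSO library b (-0.56, adjusted p = 0.012), with the GC trend removed (-0.38, adjusted p = 0.04) and without the 3 libraries (-0.56, adjusted p = 7.3e-04).

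RRM2B (chr8:102204502-102238961, minus strand), the p53-inducible small subunit of ribonucleotide reductase, supplies nucleotides for DNA repair and mitochondrial DNA. Its transcript has the lowest GC content of the 10, 35.1%. RRM2B had 142, 41.8 and 45.2 normalized reads in TSZ libraries and 54.02, 196 and 43.8 in DMSO libraries. TSZ library a stood 3.26-fold above the mean of the other 2 TSZ libraries, and DMSO library b 4.0-fold above the other 2 DMSO libraries. The log2 fold change of TSZ against DMSO was -0.23 (95% interval -1.41 to 0.94, adjusted p = 0.75), and it ranged from -0.81 to 0.41 when 1 library was left out. TNFα libraries had 77.5, 40.4 and 39.03 normalized reads, again highest in library a. TSZ+Nec-1s libraries were close together, at 98.1, 80.7 and 95.6 normalized reads, and above every TNFα library. No difference of RRM2B was called in the 6 comparisons. Without the 3 libraries high in GC-poor transcripts, TSZ+Nec-1s was higher than TSZ by 1.06 (adjusted p = 2.9e-04), than TNFα by 1.19 (adjusted p = 1.7e-04) and than DMSO by 0.89 (adjusted p = 9.9e-04). With the GC trend removed and all libraries kept, none of these was called and the difference against DMSO was -0.13.

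ZMAT3 (chr3:178960121-179072215, minus strand), a zinc finger RNA-binding protein of the p53 pathway that regulates mRNA stability and splicing, has a transcript with 38.2% GC. ZMAT3 had 102, 67.7 and 45.2 normalized reads in TSZ libraries and 113, 203 and 65.2 in DMSO libraries. The groups overlapped, and DMSO library b was 2.27-fold above the other 2. The log2 fold change was -0.74 (95% interval -1.58 to 0.09, adjusted p = 0.13). It was called with the GC trend removed (-0.81, adjusted p = 0.0033), with scaling to total reads (-1.15, adjusted p = 0.027) and without the 3 libraries (-0.65, adjusted p = 0.049). TNFα libraries had 117, 73.1 and 98.1 normalized reads and lay within the DMSO range. TSZ+Nec-1s libraries, at 117, 105 and 137 normalized reads, were all above the TSZ libraries. The log2 fold change of 0.79 (SE 0.38, adjusted p = 0.11) was not called. It was called with the GC trend removed (0.59, adjusted p = 0.022), in the fit of these 2 groups alone (0.78, adjusted p = 0.025), with scaling to total reads (1.13, adjusted p = 0.032) and without the 3 libraries (1.08, adjusted p = 6.4e-04).

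TP53INP1 (chr8:94925972-94949378, minus strand), a regulator of p53-dependent death and of autophagy, was too low for the test. It had 18, 4 and 10 reads in the TSZ libraries and 0, 3 and 4 in the DMSO libraries, which are 19.97, 4.51 and 11.9 and 0, 3.15 and 4.28 normalized reads. The TNFα libraries had 14, 4 and 2 reads and the TSZ+Nec-1s libraries 16, 6 and 7. In normalized reads every TSZ library was above every DMSO library, but TSZ library b and DMSO library c had 4 reads each and differ only by scaling. The highest count of TSZ and of TNFα was again in library a. When genes with a mean of at least 1 were tested, the log2 fold change of TSZ against DMSO was 2.52 (SE 0.95, adjusted p = 0.044), on 32 reads against 7.

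**Figure D3:**
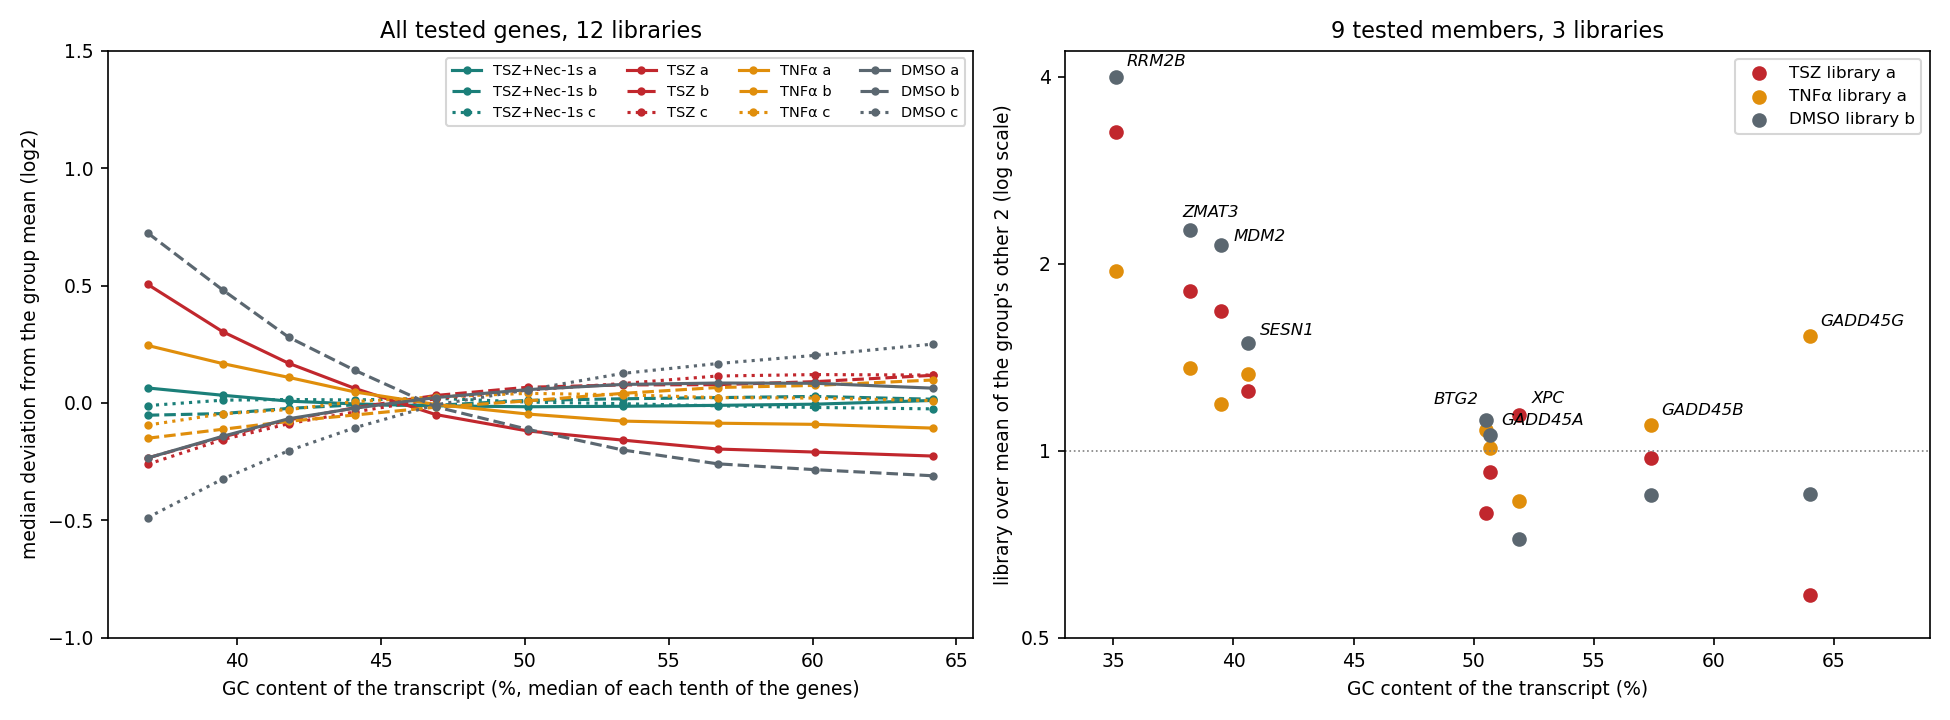
Left, median deviation of each library from its group mean (log2) against the GC content of the transcripts, in 10 bins of the 11531 tested genes with a GC value, 1 line per library; right, the level of the 9 tested members in TSZ library a, TNFα library a and DMSO library b over the mean of the other 2 libraries of the group (log axis). The curves of these 3 libraries slope downward and reach 0.505 (TSZ library a) and 0.724 (DMSO library b) in the GC-poorest bin, and RRM2B, ZMAT3 and MDM2 stand highest on the right for DMSO library b.

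Across TSZ and TNFα, which differ by SM-164 and zVAD, 4 of the 9 members were higher in TSZ (GADD45A, GADD45B, BTG2 and MDM2), where 22.8% of all tested genes were higher. XPC was the member lower in TSZ, at -1.02 (SE 0.18, adjusted p = 4.7e-04), where 21.6% of all genes were lower. GADD45A was higher by 3.10 (SE 0.10, adjusted p = 1.2e-10). SESN1 had a lower mean in TSZ, at -0.71 (SE 0.28, adjusted p = 0.054), and was not called, but it was called in each of 6 other settings, among them limma without precision weights (-0.70, adjusted p = 0.045) and the fit without the 3 libraries (-0.72, adjusted p = 0.019). GADD45G, RRM2B and ZMAT3 were not called, with log2 fold changes of 0.49, 0.38 and -0.46.

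TSZ+Nec-1s called 0 of 9 members against DMSO, where 7.20% of all genes were higher and 5.75% lower, and 0 of 9 against TNFα, where 1.10% were higher and 0.256% lower. In each of these comparisons 3 members had an unadjusted p under 0.05, and limma without precision weights called 0 as well. Against DMSO these were GADD45A, SESN1 and XPC, and against TNFα they were GADD45A, MDM2 and XPC. Of all 11734 tested genes, 1582 were higher and 1520 lower at such a p against DMSO, and 1169 and 921 against TNFα. The widest intervals were those of RRM2B, at 0.25 (95% interval -0.82 to 1.32, adjusted p = 0.79) against DMSO and 0.86 (95% interval -0.30 to 2.02, adjusted p = 0.37) against TNFα. The zero depends on how the GC trend is handled. Without the 3 libraries high in GC-poor transcripts, none of them from TSZ+Nec-1s, 3 members were higher and 2 lower than in DMSO. Against TNFα, 3 were higher and 1 lower in that setting. With the GC trend removed and all libraries kept, 1 was higher and 2 lower than in DMSO, and 1 was higher than in TNFα. Calls over all genes rose in these settings as well. Without the 3 libraries they were 3161 higher and 2708 lower of 11704 against DMSO, and 2591 and 2239 against TNFα. With the GC trend removed they were 1504 and 1828 of 11531 against DMSO, and 389 and 203 against TNFα. Without the 3 libraries, those higher in both comparisons were MDM2, RRM2B and GADD45A, and XPC was lower in both.

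**Figure D4:**
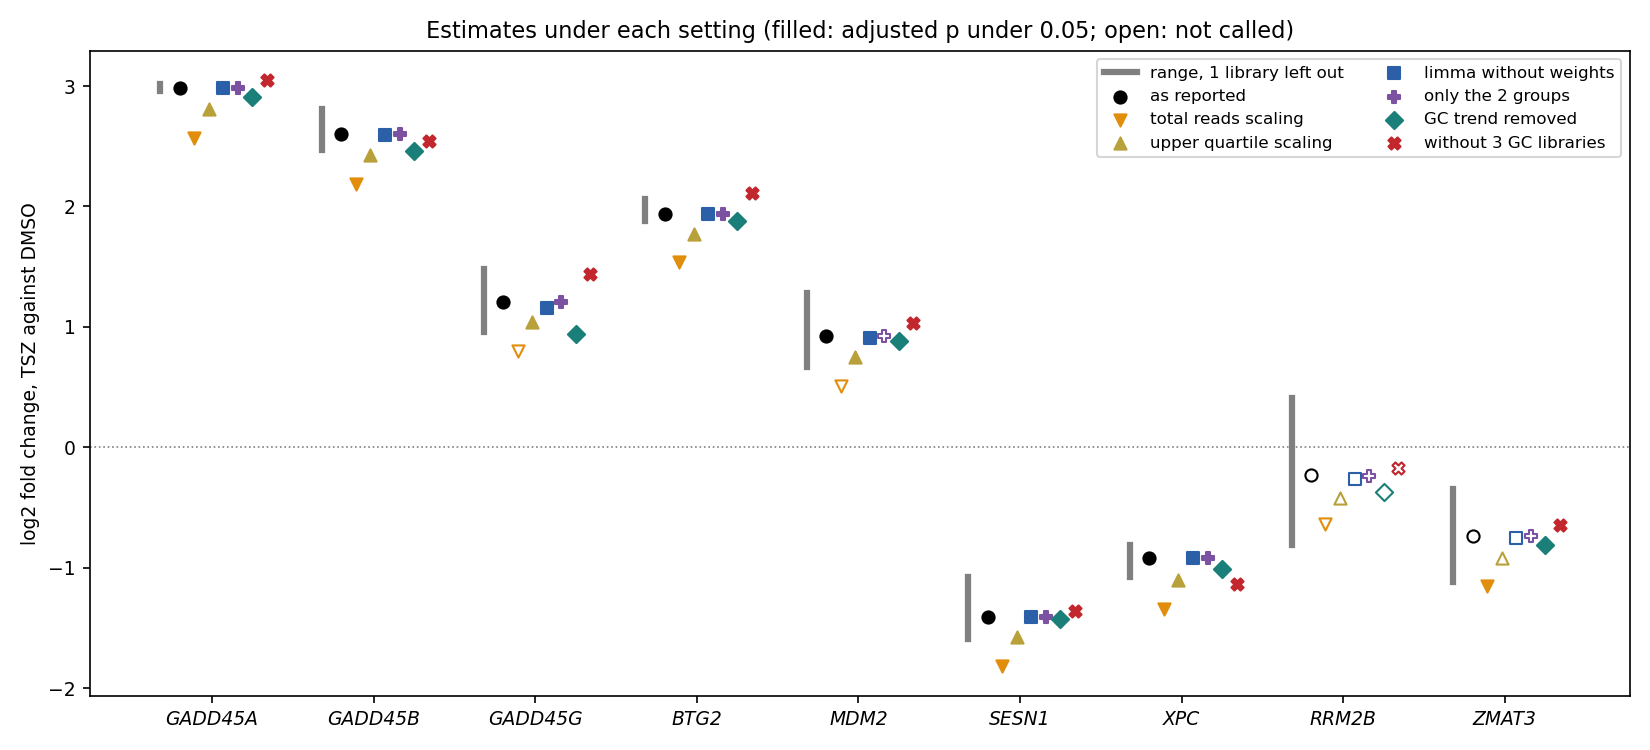
log2 fold change of TSZ against DMSO for the 9 tested members under the reported fit and 6 other settings (filled, called; open, not called), with the range when 1 library was left out (grey). GADD45A, GADD45B and BTG2 were filled under each setting, MDM2 and GADD45G lost their call with scaling to total reads, MDM2 also in the fit of the TSZ and DMSO libraries alone, and the RRM2B range crossed 0.

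Among other genes of the pathway, TP63 had at most 1 read in any library. TP73 averaged 99.1 ± 37.97 normalized reads in TSZ and 135 ± 18.3 in DMSO (SD, n = 3 each) and was not called, at -0.50 (adjusted p = 0.076). MDM4, the MDM2 relative that inhibits p53, was not called either, at 0.15 (adjusted p = 0.46). Of 20 tested regulators of p53, 6 were higher and 6 lower in TSZ than in DMSO, near the 26.0% and 24.2% of all tested genes. TP53BP2, which encodes the ASPP2 protein that directs p53 to death genes, was higher by 1.47 (adjusted p = 3.9e-08). CDKN2A, whose ARF product inhibits MDM2, was higher by 1.28 (adjusted p = 2.1e-05). Reads were counted per gene, so the ARF transcript was not measured apart from the rest of CDKN2A. The damage kinase ATR was lower, at -1.01 (adjusted p = 0.0034), and TRIM24, a ubiquitin ligase of p53, was lower too, at -0.94 (adjusted p = 3.7e-05). With Nec-1s, TP53BP2 was lower than in TSZ, at -1.29 (adjusted p = 1.9e-07) and ATR higher, at 1.24 (adjusted p = 9.8e-04). In that comparison 7 of the 20 were higher and 5 lower, against 19.8% and 22.7% of all genes.

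Of 42 tested other p53 targets, 19 were higher and 6 lower in TSZ than in DMSO, with a median log2 fold change of 0.33, where 26.0% of all tested genes were higher and 24.2% lower. The cyclin-dependent kinase inhibitor CDKN1A (p21) had 5955, 7596 and 7809 normalized reads in TSZ libraries and 102, 83.04 and 119 in DMSO libraries, a log2 fold change of 6.13 (adjusted p = 1.7e-11). BBC3, the BH3-only death protein PUMA, rose by 5.65 (adjusted p = 1.8e-10), the secreted stress cytokine GDF15 by 4.50 (adjusted p = 4.9e-10) and the stress kinase PLK3 by 3.58 (adjusted p = 2.6e-09). TNFα alone called 9 of the 42 higher and 0 lower (3.14% and 1.08% of all genes), and CDKN1A was among them, at 2.08 (adjusted p = 8.1e-06), as was PLK3, at 1.05 (adjusted p = 0.0043). With Nec-1s, 18 of the 42 were lower than in TSZ and 3 higher (22.7% and 19.8% of all genes), with GDF15 at -4.53 (adjusted p = 7.8e-10) and BBC3 at -3.90 (adjusted p = 6.3e-10). CDKN1A was also higher in TSZ+Nec-1s than in DMSO, at 2.85 (adjusted p = 1.5e-07), as were 13 of the 42 targets with it counted, whereas 5 were lower (7.20% and 5.75% of all genes). Whether CDKN1A and GADD45A differ in this was not tested.

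**Figure D5:**
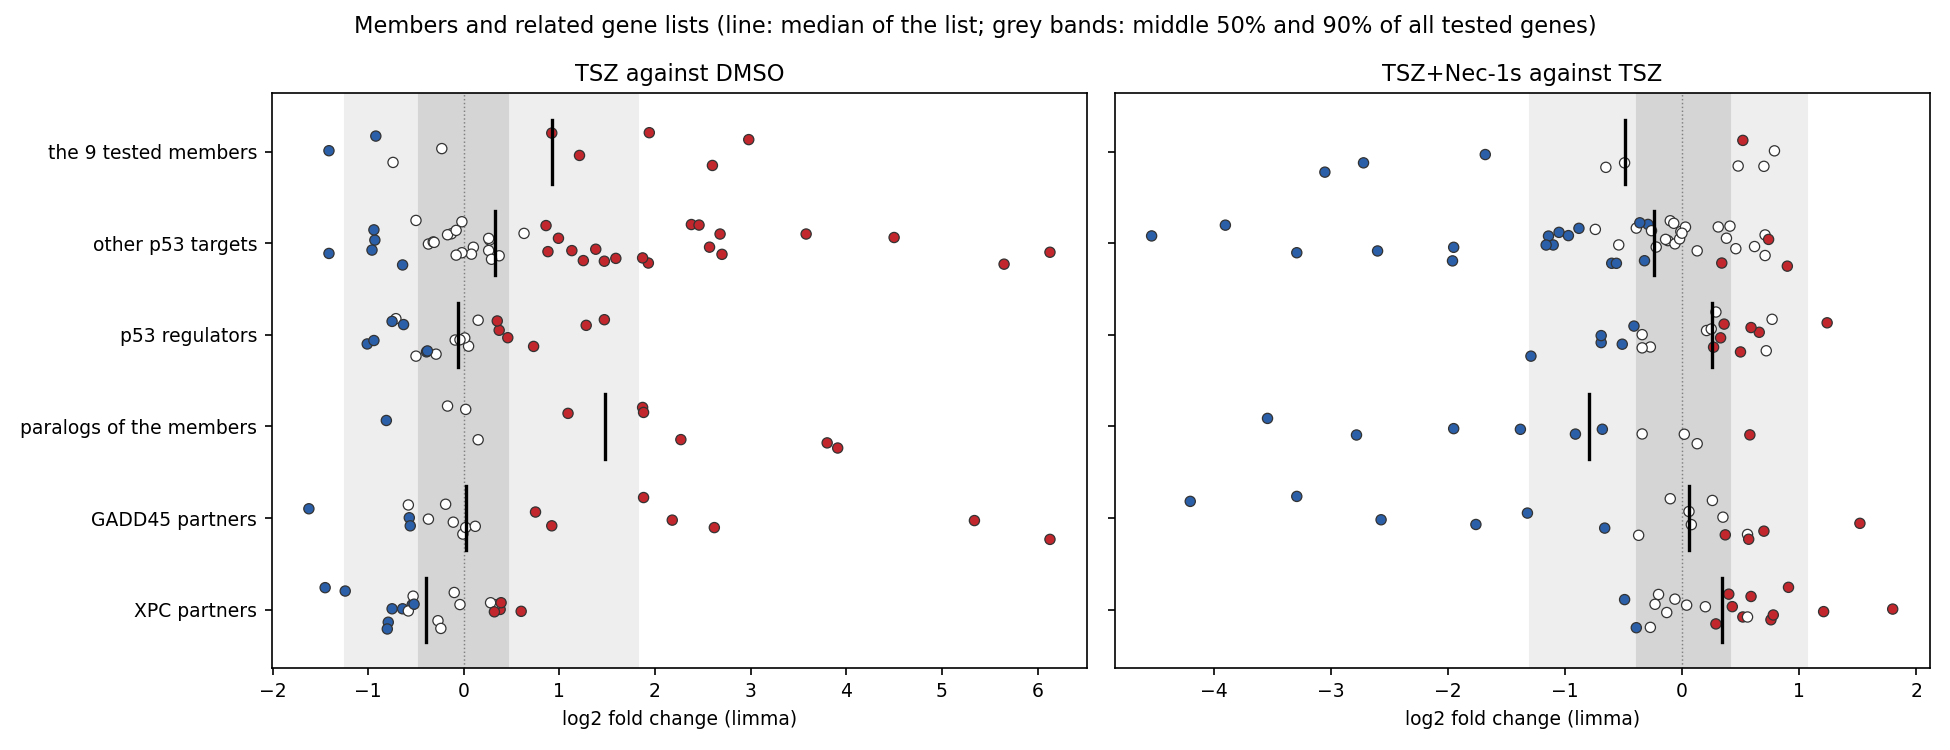
log2 fold change (limma) of the tested genes of 6 lists in TSZ against DMSO and TSZ+Nec-1s against TSZ; red called higher, blue called lower, open not called, black lines the list medians and grey bands the middle 50% and 90% of the 11734 tested genes. The median of the members was 0.92 and that of the XPC partners -0.39 in the left panel; in the right panel they were -0.49 and 0.34.

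Paralogs of the members were measured beside them. Of 10 tested, 6 were higher and 1, RRM2, was lower in TSZ than in DMSO, where 26.0% of all tested genes were higher and 24.2% lower. TNFα alone called 1 paralog, BTG3, higher, where 3.14% of all genes were. BTG1, of the same antiproliferative family as BTG2, had 2719, 2305 and 2339.7 normalized reads in TSZ libraries and 143, 197 and 154 in DMSO libraries, a log2 fold change of 3.91 (adjusted p = 2.5e-10). BTG3 gave 2.27 (adjusted p = 1.2e-08) and TOB1 1.88 (adjusted p = 4.7e-09), so that BTG1, BTG2, BTG3 and TOB1 were all higher. TP53INP2, the autophagy-linked relative of TP53INP1, rose by 3.80 (adjusted p = 4.8e-08). SESN2 was among the 6 that were higher, while SESN1 was lower. With Nec-1s, BTG1, BTG3, SESN2, TOB1, TOB2 and TP53INP2 were lower than in TSZ, where 22.7% of all genes were, with BTG1 at -2.78 (adjusted p = 3.1e-09) and TP53INP2 at -3.54 (adjusted p = 6.6e-08).

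Of 17 tested GADD45 partners and co-regulated stress genes, 7 were higher and 3 lower in TSZ than in DMSO, where 26.0% of all tested genes were higher and 24.2% lower. PPP1R15A (GADD34), the phosphatase subunit that reverses eIF2α phosphorylation and is not of the GADD45 family, rose by 5.34 (adjusted p = 3.7e-12). DDIT3 (CHOP, also GADD153) rose by 2.62 (adjusted p = 5.4e-08) and FOXO3, a transcription factor that can activate GADD45A, by 2.18 (adjusted p = 4.5e-09). With Nec-1s, PPP1R15A was lower than in TSZ, at -4.20 (adjusted p = 4.1e-11), as was CDKN1A, which is on this list too, at -3.29 (adjusted p = 4.1e-10). In that comparison 6 of the 17 were lower and 4 higher, against 22.7% and 19.8% of all genes. TNFα alone called 2 of the 17 higher, CDKN1A and PPP1R15A (3.14% of all genes), and the kinase partner MAP3K4 was not among the genes called in TSZ against DMSO.

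Of 20 tested XPC partners, 8 were lower, 4 higher and 8 not called in TSZ against DMSO, with a median of -0.39, where 24.2% of all tested genes were lower and 26.0% higher. The nuclease subunit ERCC4 (XPF) stood at -1.45 (adjusted p = 0.021), the single-strand binding subunit RPA2 at -1.24 (adjusted p = 2.2e-06), the verification factor XPA at -0.80 (adjusted p = 0.0035) and the helicase ERCC2 (XPD) at -0.79 (adjusted p = 6.0e-04). ERCC4 was unevenly covered, with 36.6, 14.7 and 15.5 normalized reads in TSZ libraries and 43.2, 101 and 42.8 in DMSO libraries. TNFα alone called 0 of the 20, and 0 had an unadjusted p under 0.05. Of all 11734 tested genes, 1089 were higher and 688 lower at that unadjusted p. With Nec-1s, 10 of the 20 were higher than in TSZ and 2 lower (19.8% and 22.7% of all genes), with ERCC4 at 1.80 (adjusted p = 0.0068) and RPA2 at 1.21 (adjusted p = 4.2e-06).

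As a description over the 12 libraries, which share treatments and GC trends, the genes with the highest Pearson r of log2 level to GADD45A among 9921 genes were KLF6 (0.997), TGIF1 (0.995) and INSIG1 (0.994). For BTG2 they were NDEL1 (0.992), LPIN1 (0.991) and C12orf49 (0.991). ARAP2 (0.994), ARL6IP1 (0.993) and ETNK1 (0.990) were nearest to MDM2, EXOC2 (0.959), ZNF519 (0.939) and KDELR3 (0.936) to SESN1, and SMG6 (0.970), ANKS6 (0.949) and CHAF1B (0.944) to XPC. Among the members, GADD45A followed BTG2 (0.98) and GADD45B (0.97) and ran opposite to XPC (-0.87). RRM2B was nearest to ZMAT3 (0.77), the pair with the GC-poorest transcripts, and had an r of -0.03 with GADD45A.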

How the data were processed

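PolyA RNA of HT-29 cells in 4 groups of 3 libraries was sequenced as single-end reads. Reads were mapped by the authors with STAR 2.3.0e (hg38), counted per gene with HTSeq 0.5.4e (intersection-strict, without strand) and scaled with DESeq, whose version is not given in the sources used here. The signal used here is the authors' deposited mean of scaled counts in each group, from 6 tables of comparisons. Their fold change, log2 fold change and p-value columns hold the authors' own tests and were not used. Samples were grouped by their labels.

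With up to 15 significant digits, a mean fixes the 3 numbers of reads that were scaled and averaged. Whole reads were recovered wherever 1 solution remained, for 15641 to 15848 genes per group, which hold 93.81% to 100% of the scaled reads. The steps differed from median-of-ratios size factors of the recovered reads by at most 7.11e-04 as a relative difference. Recovered libraries carry no replicate number and are lettered by step size. At 8790766 to 12734104 reads a library, a gene with a mean of 10 rests on few reads.

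limma 3.58.1 in R 4.3.3, with precision weights and 4 group means, was fitted to 11734 genes with a mean of at least 10. p-values were two-sided and adjusted by the Benjamini-Hochberg method, and a gene was called at an adjusted p under 0.05. The recovery and the fit were tested on simulated data, with outcomes not reported here. The libraries simulated for the fit had no GC trend, so that test does not cover the effect of such a trend on the calls. Python 3.11.15 with numpy 2.4.6, pandas 2.3.3 and matplotlib 3.10.9 was used otherwise. Symbols were matched to GENCODE v44 on hg38 (23161 directly, 1384 under older symbols, 1940 not matched), and GC content was known for 98.3% of the tested genes. Promoter windows came from RefSeq.

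The members, the test and the lists (45 other p53 targets, 21 p53 regulators, 13 paralogs, 18 GADD45 partners, 21 XPC partners, 3 marker lists) were chosen with earlier results of these data known. Named were all 10 members and TP63, TP73 and MDM4, and 1 further gene of this rule is not reported here. From each list came up to 4 genes with the largest change called in TSZ against DMSO and up to 2 in TSZ+Nec-1s against TSZ, at a mean of at least 50, and for each called member with a mean of at least 50 the 3 genes most like it. Alternatives were 2 other scalings, minimum means of 1 and 50, limma without weights, fits of the 2 groups compared, removal of a GC trend and leaving out libraries.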

Additional observations from a re-analysis of the deposited data

How the results depend on the processing

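The calls of GADD45A, GADD45B, BTG2, SESN1 and XPC in TSZ against DMSO held under each setting that tested them, and those of GADD45A, GADD45B and BTG2 in TSZ+Nec-1s against TSZ did too. Counts of members called that moved by over 1.5 times were as follows, and the causes were not tested. With scaling to total reads, which moved the median of all genes in TSZ against DMSO to -0.43 on the log2 scale, 3 members were higher in TSZ than in DMSO, 1 was lower in TSZ+Nec-1s than in DMSO, 2 were lower in TSZ than in TNFα and 3 were higher in TSZ+Nec-1s than in TSZ. Over all 11734 genes, the same 4 counts with this scaling were 1668, 1313, 4979 and 4941. Of all calls in TSZ against DMSO, 51.8% were higher as reported and 22.7% with this scaling, and in TSZ+Nec-1s against TSZ 46.6% and 77.9%. With upper quartile scaling the share in TSZ against DMSO was 37.5%. In that setting 1 member was lower in TSZ+Nec-1s than in DMSO, 2 lower in TSZ than in TNFα and 2 higher in TSZ+Nec-1s than in TSZ. Over all 11734 genes these counts were 907, 3452 and 3160. With a minimum mean of 50, which leaves 7 members, 3 were higher in TSZ than in DMSO, as were 2762 of all 9921 genes. limma without weights gave 2 lower in TSZ than in TNFα and 2 higher in TSZ+Nec-1s than in TSZ. Over all 11734 genes it gave 2613 and 2387. Fits of the 2 groups compared gave 2 lower in TSZ than in TNFα, 3 higher and 1 lower in TSZ+Nec-1s than in TNFα and 3 higher in TSZ+Nec-1s than in TSZ. Over all genes these fits gave 2509 of 11721, 1997 and 1159 of 11633, and 2724 of 11714. With the GC trend removed, 1 was lower in TNFα than in DMSO, 1 higher and 2 lower in TSZ+Nec-1s than in DMSO, 3 lower in TSZ than in TNFα, 1 higher in TSZ+Nec-1s than in TNFα and 3 higher in TSZ+Nec-1s than in TSZ. Over all 11531 genes of that setting, the counts in the same order were 774, 1504, 1828, 3941, 389 and 3709. Without the 3 libraries high in GC-poor transcripts, a choice made after seeing the data, 1 was lower in TNFα than in DMSO, 3 higher and 2 lower in TSZ+Nec-1s than in DMSO, 2 lower in TSZ than in TNFα, 3 higher and 1 lower in TSZ+Nec-1s than in TNFα, and 4 higher and 5 lower in TSZ+Nec-1s than in TSZ. Over all 11704 genes of that setting, the counts in the same order were 470, 3161, 2708, 3010, 2591, 2239, 3631 and 3753. Smaller moves were 3 lower in TSZ than in DMSO with total reads, with the GC trend removed and without the 3 libraries, 4 higher there in the fit of those groups alone and 6 with a minimum mean of 1, 3 higher in TSZ than in TNFα with a minimum mean of 50 and 5 without the 3 libraries, and, lower in TSZ+Nec-1s than in TSZ, 2 with a minimum mean of 50 and 4 with the GC trend removed and in the fit of those groups alone.

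When 1 library was left out, 3 to 5 members were higher and 2 to 3 lower in TSZ than in DMSO, 0 to 1 higher and 0 to 1 lower in TSZ+Nec-1s than in DMSO and likewise 0 to 1 and 0 to 1 against TNFα, 4 to 4 higher and 1 to 2 lower in TSZ than in TNFα, and 0 to 3 higher and 3 to 4 lower in TSZ+Nec-1s than in TSZ. The 3 in TSZ against DMSO came without DMSO library a. Over all genes, TSZ+Nec-1s against TNFα called 129 higher and 30 lower as reported, 1997 and 1159 in the fit of those groups alone and 2591 and 2239 without the 3 libraries.

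Directions turned only for differences that were not called. Without the 3 libraries, MDM2 in TNFα against DMSO was 0.11, SESN1 in TSZ+Nec-1s against TNFα 0.13 and GADD45G in TSZ+Nec-1s against TNFα 0.04. With the GC trend removed, RRM2B was -0.13 in TSZ+Nec-1s against DMSO and -0.0035 in TSZ against TNFα, ZMAT3 -0.22 in TSZ+Nec-1s against DMSO and -0.10 in TSZ+Nec-1s against TNFα, and BTG2 0.04 in TSZ+Nec-1s against TNFα. ZMAT3 in TSZ+Nec-1s against DMSO was -0.02 with total reads and -0.01 with upper quartile scaling. With 1 library left out, the ranges were -0.39 to 0.20 for MDM2, -0.06 to 0.19 for XPC, -0.99 to 0.03 for RRM2B and -0.66 to 0.11 for ZMAT3 in TNFα against DMSO, -0.81 to 0.41 for RRM2B in TSZ against DMSO, -0.13 to 0.89 for RRM2B and -0.34 to 0.43 for ZMAT3 in TSZ+Nec-1s against DMSO, -0.20 to 0.71 for RRM2B in TSZ against TNFα, and -0.11 to 0.13 for SESN1, -0.13 to 0.02 for BTG2 and -0.39 to 0.04 for GADD45G in TSZ+Nec-1s against TNFα.

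No paired analysis was possible because the recovered libraries carry no replicate numbers. Reads of 24 highly expressed genes could not be solved, none of them a member. GADD45G and TP53INP1 rest on few reads in every group, and GADD45B does so outside TSZ.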
